A study of Mus musculus with 24 samples.

Results

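miR-342-3p, miR-146a and miR-132 (mmu-miR-342-3p, mmu-miR-146a and mmu-miR-132 in the deposited table) are 3 of the 566 mouse miRNAs with a probe in a panel that profiled exosomes, vesicles shed by cells, from mouse serum. They were chosen by their measured difference between mice on a western diet and mice on normal chow when neither received a liver toxin, being higher on the western diet, so that difference is given here as a description, without a test. The samples are 24 sera of male C57BL/6N mice aged 40 weeks, in 4 groups of 6. ND+oil mice ate normal chow (LabDiet), drank tap water and received corn oil, the vehicle. WD+oil mice received the same oil and the western diet, a high-fat feed (Teklad) with 23.1 g/L fructose and 18.9 g/L glucose in the drinking water. ND+CCl4 mice ate chow and received carbon tetrachloride, a hepatotoxin, and WD+CCl4 mice received both the western diet and carbon tetrachloride. Every group was injected into the peritoneal cavity, at 1 injection per week. The labels equate the groups with normal liver, NASH (fatty liver with inflammation), cirrhosis and hepatocellular carcinoma, in the order ND+oil, WD+oil, ND+CCl4 and WD+CCl4. They do not say whether the samples are separate animals, so the spread behind each p-value is that among samples and may be technical.

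A miRNA is a short RNA that guides the Argonaute protein to matching sites in messenger RNAs, mostly through the seed, bases 2 to 8 from its 5′ end, and lowers their translation and stability. miR-342-3p is made from an intron of the EVL gene, which encodes an actin regulator, and is known as abundant in lymphocytes. miR-146a is induced by NF-kB after Toll-like receptor stimulation and represses TRAF6 and IRAK1, signalling proteins of the same pathway. It is therefore described as a brake on innate immune signalling. miR-132 shares a primary transcript with miR-212, is induced by CREB in neurons, and is also made by immune and endothelial cells. In serum these miRNAs can come from many tissues, and the measurement does not name the cell of origin.

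The mature sequences are shown because the 3 miRNAs share no seed, and because each has a close relative on the panel whose signal could be compared with its own. Capitals mark the seed, and the sequences are from RefSeq with positions in GRCm38.p6. The table names miR-146a, miR-132, miR-146b and miR-212 without an arm, and each was taken as the major arm of the older naming.
miR-342-3p: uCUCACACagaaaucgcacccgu
miR-342-5p: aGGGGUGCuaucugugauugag
miR-146a: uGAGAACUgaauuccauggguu
miR-146b: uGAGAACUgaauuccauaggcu
miR-132: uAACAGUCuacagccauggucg
miR-212: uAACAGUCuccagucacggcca
Among 1738 mature mouse miRNAs in that table the seed of miR-342-3p occurs once. miR-146a shares its seed with miR-146b alone and is identical to it at 20 of 22 positions, the differences being G18A and U21C, written as the base of miR-146a, the position from the 5′ end and the base of miR-146b. miR-132 shares its seed with miR-212 alone and matches it at 17 of 22 positions (A10C, C14U, U17C, U20C and G22A, with the base of miR-132 first).

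The 3 miRNAs come from separate loci. Mature miR-342-3p lies at chr12:108658680-108658702 on the plus strand, within the protein-coding gene Evl. Mature miR-146a lies at chr11:43374435-43374456 on the minus strand, where the annotation shows no other gene over the precursor. Mature miR-132 lies at chr11:75173723-75173744 on the plus strand, and the precursors of miR-212 and miR-132 are 203 bases apart. The precursor of miR-342 is 99 bases long, and its 2 arms, in capitals below, are measured by separate probes.
Mir342 precursor: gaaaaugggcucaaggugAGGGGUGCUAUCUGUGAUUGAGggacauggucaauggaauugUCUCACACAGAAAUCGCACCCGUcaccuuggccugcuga

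Total counts per library ranged from 42478 to 1496818, with a median of 207120, and 69 to 213 mouse miRNAs lay above the negative control limit, the mean plus 2 SD of the 8 negative control probes of a library. The 158 miRNAs above that limit in at least 6 of 24 samples were tested. Replicates 1 to 3 were shallower than replicates 4 to 6 (median total 69551 against 254312), and no batch is labelled. ND+CCl4 replicate 1 and its WD+CCl4 counterpart stood apart from the other 22 libraries, at 23.7 and 22.3 on a first principal component that held 44.2% of the variance, where the next library reached 6.84. They had the highest total counts (1496818 and 1328912), and the 3 miRNAs are described with and without them. As a haemolysis index, the log2 value of miR-23a was taken from that of the red cell miRNA miR-451. ND+oil had an index of 3.45 ± 0.32, WD+oil of 2.96 ± 0.62, ND+CCl4 of 3.85 ± 1.51 and WD+CCl4 of 3.13 ± 1.09 (SD, n = 6). Between ND+oil and WD+oil the mean log2 value went from 16.04 to 15.90 for miR-451 and from 12.59 to 12.95 for miR-23a. The lower index in WD+oil thus comes more from miR-23a than from the red cell miRNA.

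All 3 miRNAs were above the negative control limit in 24 of 24 samples. Digital counts recovered from the deposited values were 182 to 2079 for miR-342-3p, 292 to 6829 for miR-146a and 59 to 1004 for miR-132. The smallest ratio of a count to the limit of its library was 4.56 for miR-342-3p, 6.41 for miR-146a and 1.43 for miR-132. miR-132 was therefore the least well separated from background, in the shallow libraries above all. Their relatives gave little signal. miR-342-5p, the other arm of the miR-342 precursor, had 3 to 14 counts and was above the limit in 0 of 24 samples. miR-146b had 4 to 15 counts and was likewise above it in 0 of 24 samples. miR-212 had 3 to 166 counts and was above it in 5 of 24 samples, all of them among the deeper replicates 4 to 6 and none in ND+oil. Those 5 libraries had total counts of 243359 or more, and no ND+oil library had more than 204535. None of these relatives was tested, and probes differ in efficiency, so each is set against its own limit and not against its partner.

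**Figure D1:**
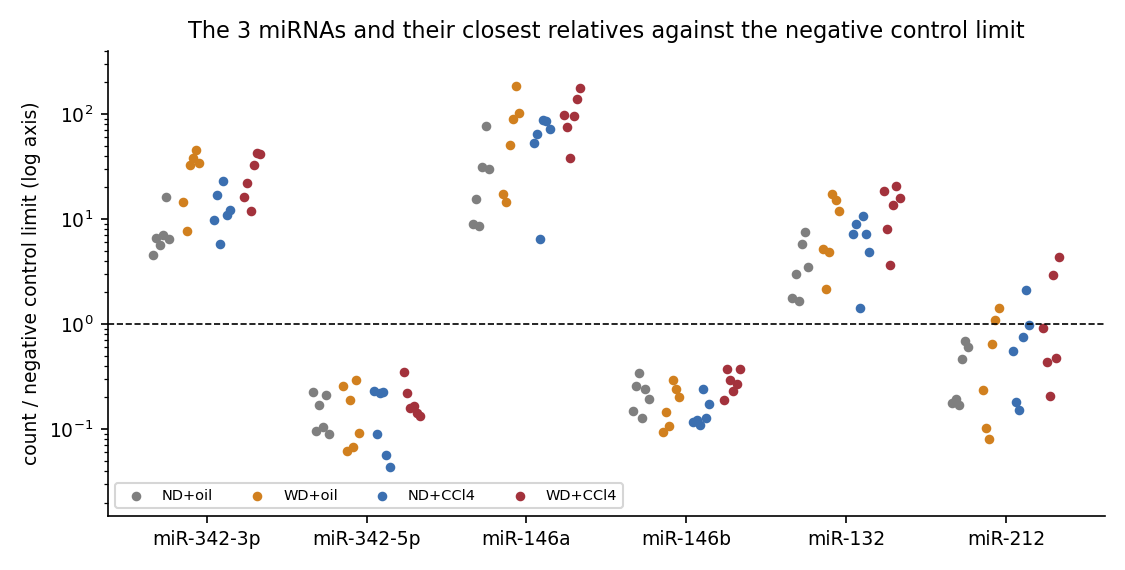
Count divided by the negative control limit of the same library (log axis) for the 3 miRNAs and their closest relatives, 1 point per sample, coloured by group; the dashed line is the limit. The points of miR-342-3p, miR-146a and miR-132 lie above the line in 24 of 24 samples, those of miR-342-5p and miR-146b below it in all 24, and those of miR-212 above it in 5.

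miR-342-3p was highest in WD+oil. Its deposited value, a digital count scaled by the authors with 1 factor per sample, was 416 at the lowest, 758 at the median and 1137 at the highest in ND+oil, and 1719, 1969.7 and 5351 in WD+oil. The 6 WD+oil samples all lay above the 6 ND+oil samples, and 5351, in replicate 3, stood well above the rest of its group. In ND+CCl4 the lowest, median and highest values were 168, 737 and 1408, and in WD+CCl4 they were 270 (replicate 1), 1049 and 1694. The highest WD+CCl4 sample, 1694, lay just below the lowest WD+oil sample, 1719. Of the 158 miRNAs 1.27% showed no overlap between these 2 groups with WD+CCl4 lower. WD+oil is also the group whose high values chose miR-342-3p. The order of the mean log2 values (pseudocount 1) was ND+CCl4 9.28 ± 1.09, ND+oil 9.50 ± 0.61, WD+CCl4 9.85 ± 0.93 and WD+oil 11.17 ± 0.62 (SD, n = 6). The neighbouring means of ND+CCl4 and ND+oil, and of ND+oil and WD+CCl4, differ by less than their SDs, while WD+oil lies above WD+CCl4 by more than either SD. Without the libraries that stand apart the means were 9.66 ± 0.65 for ND+CCl4 and 10.21 ± 0.37 for WD+CCl4 (SD, n = 5), which puts ND+oil lowest.

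miR-146a had the same group at the top and more overlap. Its lowest, median and highest values were 1569.5, 1978 and 3405 in ND+oil and 2920.1, 4749 and 8272 in WD+oil. The highest ND+oil sample exceeded the lowest WD+oil sample. In ND+CCl4 they were 906, 2941 and 4785, and in WD+CCl4 1631, 3534 and 5563. Both carbon tetrachloride groups overlapped ND+oil and WD+oil. The mean log2 value ran in order from ND+oil, 11.06 ± 0.42, through ND+CCl4, 11.27 ± 0.91, and WD+CCl4, 11.75 ± 0.61, to WD+oil, 12.28 ± 0.55 (SD, n = 6), and no neighbours in this order differ by more than the larger of their SDs. Without the libraries that stand apart ND+CCl4 was at 11.56 ± 0.64 and WD+CCl4 at 11.96 ± 0.35 (SD, n = 5), in the same order.

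miR-132 was the least variable of the 3 within groups, with a pooled SD of 0.49 on the log2 scale beside 0.65 for miR-146a and 0.84 for miR-342-3p. Its lowest, median and highest values were 252, 333 and 501 in ND+oil and 589, 695 and 873 in WD+oil. The ND+oil and WD+oil samples did not overlap. In ND+CCl4 they were 124, 317 and 558, and in WD+CCl4 308, 387 and 818. A single sample of WD+CCl4, replicate 5, reached the range of WD+oil. In order, the mean log2 values were 8.22 ± 0.70 in ND+CCl4, 8.40 ± 0.32 in ND+oil, 8.74 ± 0.54 in WD+CCl4 and 9.46 ± 0.26 in WD+oil (SD, n = 6). The gap between WD+CCl4 and WD+oil was wider than both SDs, and the other gaps were not. Without the libraries that stand apart ND+CCl4 was at 8.47 ± 0.38 and WD+CCl4 at 8.83 ± 0.55 (SD, n = 5), so that ND+oil was lowest.

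**Figure D2:**
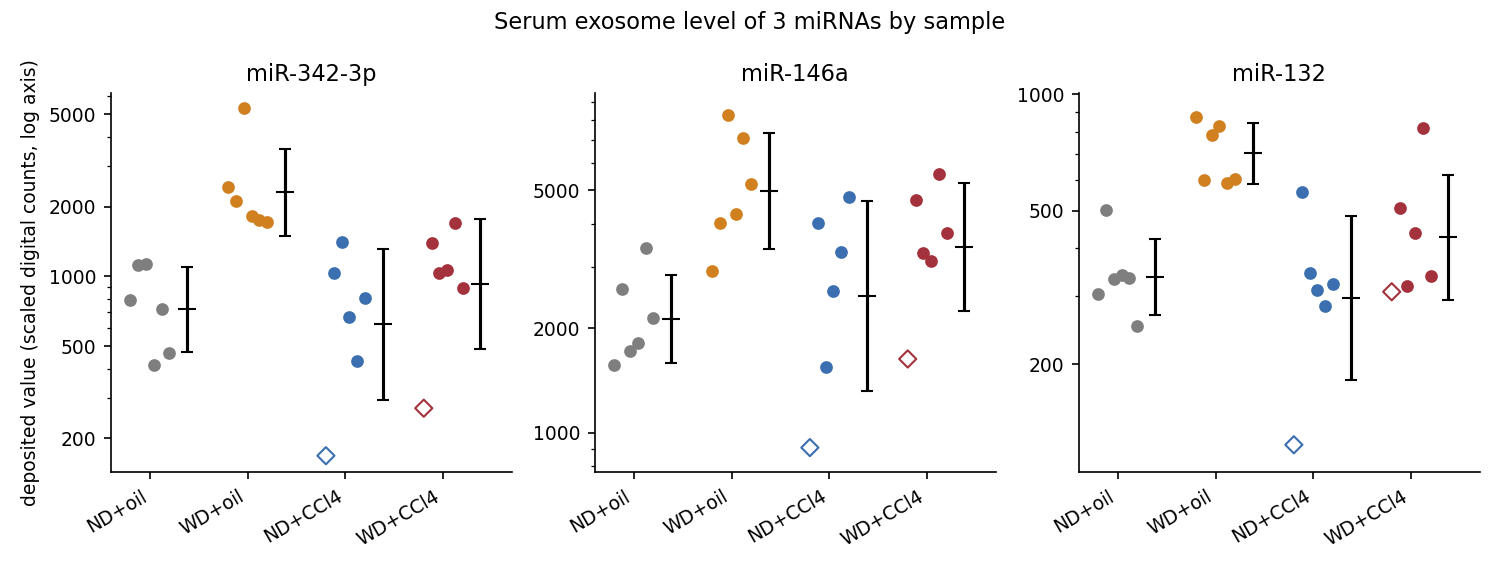
Deposited value (scaled digital counts, log axis) of each miRNA in every sample of the 4 groups; bars show the mean and SD of the log2 values (n = 6), and open diamonds are the 2 libraries that stand apart. WD+oil samples sit between 1719 and 5351 for miR-342-3p and between 589 and 873 for miR-132, above all ND+oil samples, while for miR-146a the groups overlap.

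The lowest sample of each carbon tetrachloride group was replicate 1, a library that stands apart, for all 3 miRNAs. This holds on the scaled values. ND+CCl4 replicate 1 had 424 counts of miR-342-3p, 2280 of miR-146a and 312 of miR-132, within the range of the other libraries, and the authors' factor for it was 0.397, the smallest of the 24. The corresponding counts in WD+CCl4 replicate 1 were 591, 3572 and 675, with a factor of 0.457. miR-122, which dominates the miRNA content of hepatocytes, was at 60749.7 and 44112 scaled counts in these libraries, the highest of the 24. Its part in their low scaled values of the 3 miRNAs was not tested.

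The difference that chose the 3 miRNAs was between WD+oil and ND+oil. miR-342-3p was 3.20-fold higher in WD+oil (log2 difference 1.68, SE 0.47), miR-146a 2.34-fold (1.23, SE 0.38) and miR-132 2.09-fold (1.06, SE 0.31), and for each all 6 WD+oil samples lay above the ND+oil mean. In this comparison 17 of 158 miRNAs passed a limma adjusted p under 0.05, or 10.8%, with 8 of them higher (5.06%) and 9 lower (5.7%). Samples of the 2 groups did not overlap, with WD+oil higher, in 13 miRNAs (8.23%), miR-342-3p and miR-132 among them. The 3 are among the 8 called higher, and since this difference chose them, their place there is not a test of them. Just inside the threshold were miR-146a (log2 difference 1.23) and miR-2137 (2.12), and just outside it were miR-148a (2.002) and miR-2132 (1.51).

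The higher level in WD+oil appeared in both depth sets. Within replicates 1 to 3 the fold was 3.02 for miR-342-3p, 2.40 for miR-146a and 2.01 for miR-132. Within replicates 4 to 6 it was 3.38, 2.29 and 2.17 in the same order. In neither set did the 3 WD+oil samples overlap the 3 ND+oil samples for any of the 3 miRNAs, so the overlap of miR-146a lay between sets. Of all 158 miRNAs 19% were higher in WD+oil without overlap in replicates 1 to 3, and 20.9% in replicates 4 to 6. WD+oil then exceeds ND+oil in 6 of 6 same-numbered pairs for each miRNA of necessity. The folds in these pairs were 1.90 to 4.70 for miR-342-3p, 1.55 to 4.80 for miR-146a and 1.20 to 2.86 for miR-132. Sets and pairs alike use the values that chose the miRNAs, so they describe that difference and add no support to it. WD+oil replicate 3, the highest sample for miR-342-3p and miR-146a, had a haemolysis index of 1.80, the lowest of its group. Without it the log2 differences were 1.43 and 1.08. With the haemolysis index as a covariate the differences were 1.70 for miR-342-3p, 1.35 for miR-146a and 1.09 for miR-132. That index includes miR-23a. In the ND+oil and WD+oil samples its deviations from the group mean correlated with theirs at r = 0.15, -0.17 and 0.90 in the same order. Scaling by spike-in probes left them at 1.78, 1.34 and 1.17.

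WD+CCl4 was set against ND+CCl4 to ask whether the same diet went with higher levels in mice that received carbon tetrachloride. The means compared come from 12 samples other than those whose difference chose the miRNAs. The fit takes its estimate of the spread from all 24 samples, however, so it is not wholly independent of that choice. With these 12 samples alone the SE was 0.56 for miR-342-3p, 0.46 for miR-146a and 0.40 for miR-132 (limma adjusted p = 0.996 for each). All 3 means were higher in WD+CCl4, and none of the 3 passed. miR-342-3p was 1.49-fold higher (log2 difference 0.57, SE 0.47, limma adjusted p = 0.783), with a 95% interval of 0.762-fold to 2.91-fold. miR-146a was 1.39-fold higher (log2 difference 0.47, SE 0.38, limma adjusted p = 0.783), with an interval of 0.809-fold to 2.39-fold. miR-132 was 1.44-fold higher (log2 difference 0.52, SE 0.31, limma adjusted p = 0.535), with an interval of 0.926-fold to 2.23-fold. Each of these intervals includes no difference. Whether the diet difference itself differs between oil and carbon tetrachloride was not tested, since that test would use the samples that chose the miRNAs.

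Of the 158 miRNAs 1 passed in this comparison (0.633%), and 19 had an unadjusted p under 0.05 (12%), so a count of 0 of 3 is near the background. For miR-342-3p and miR-146a 5 of 6 WD+CCl4 samples lay above the ND+CCl4 mean, and for miR-132 6 of 6 did. In same-numbered pairs WD+CCl4 was the higher in 5 of 6 for miR-342-3p and miR-146a and in 4 of 6 for miR-132, with median folds of 1.46, 1.43 and 1.21. All 3 pairs of groups overlapped. Blocking on the replicate number let 3 miRNAs pass in place of 1, without any of the 3 described here. edgeR on the recovered counts called 3 and DESeq2 13, again without them.

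The fold differed in size between the sets of replicates, without a test of that difference. In replicates 4 to 6 miR-342-3p was 1.91-fold higher in WD+CCl4 without overlap (limma adjusted p = 0.0897, n = 3 per group), and in replicates 1 to 3 it was 1.16-fold higher with overlap (adjusted p = 0.989). For miR-132 the fold was 1.62 without overlap in the higher-numbered set and 1.28 with overlap in the lower-numbered one. miR-146a went the other way, at 1.17-fold in the higher-numbered set and 1.64-fold in the lower-numbered one, with overlap in both. Of all 158 miRNAs 10.8% were higher in WD+CCl4 without overlap in the higher-numbered set, and 1.9% in the lower-numbered one. The lower-numbered set holds the libraries that stand apart, which have the highest total counts. In its replicates 2 and 3 miR-132 was lower in WD+CCl4 (507 and 318) than in same-numbered ND+CCl4 (558 and 345). There miR-342-3p was higher in replicate 2 (1387 against 1039) and lower in replicate 3 (1034 against 1408). miR-146a was higher in both (4688 against 4029, and 3291 against 1551). Without both libraries that stand apart the log2 differences were 0.55, 0.40 and 0.37 for miR-342-3p, miR-146a and miR-132 (limma adjusted p = 0.419, 0.551 and 0.496). Leaving out ND+CCl4 replicate 1 alone gave 0.20, 0.18 and 0.27, and leaving out WD+CCl4 replicate 1 alone gave 0.93, 0.69 and 0.62, so these 2 libraries moved the estimates in opposite directions.

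**Figure D3:**
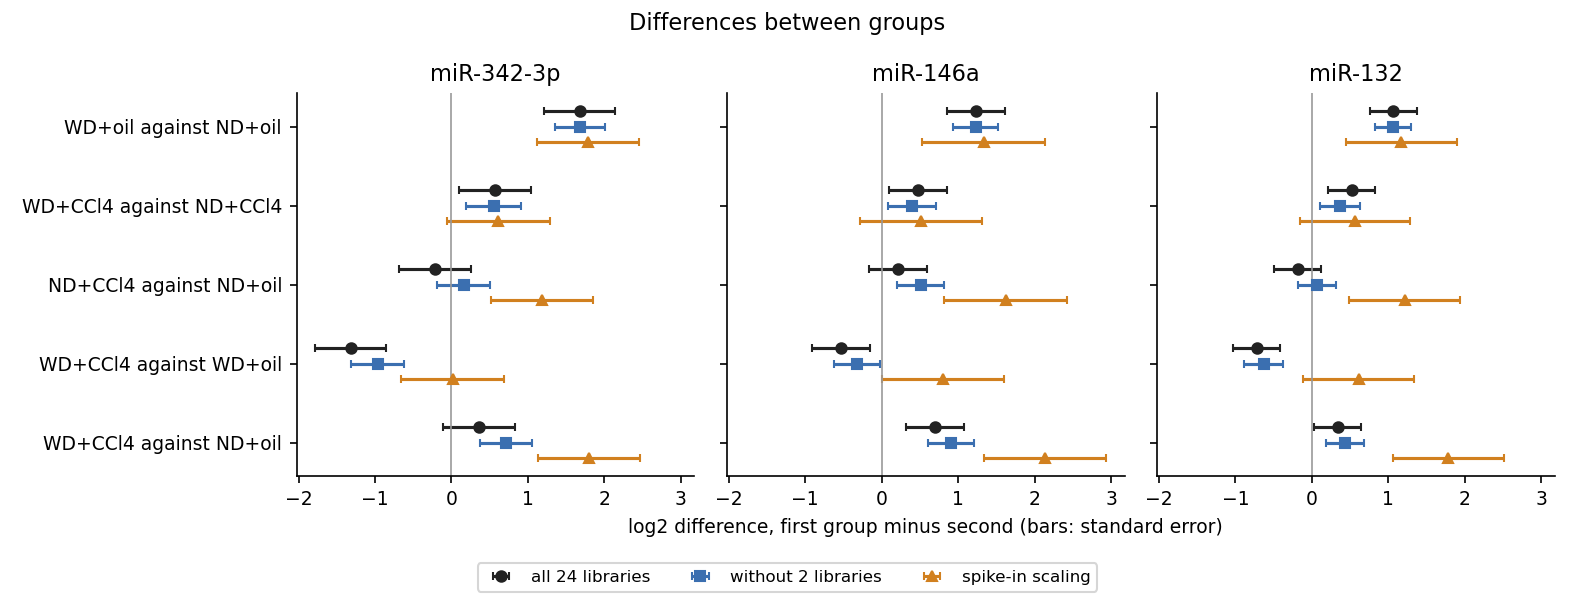
Log2 difference between groups for each miRNA, with its standard error, from all 24 libraries (circles), without the 2 libraries that stand apart (squares) and with spike-in scaling (triangles). The 2 diet comparisons at the top lie right of 0 under each setting; the 3 comparisons that set carbon tetrachloride against oil move right with spike-in scaling, which takes WD+CCl4 against WD+oil from below 0 to 0.016, 0.80 and 0.61.

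The remaining comparisons share the ND+oil or WD+oil samples with the one that chose the miRNAs and are given as values without a test. In ND+CCl4 against ND+oil the log2 differences were -0.22 for miR-342-3p, 0.22 for miR-146a and -0.18 for miR-132. They were 0.16, 0.51 and 0.07 without the libraries that stand apart, and 1.18, 1.62 and 1.22 with spike-in scaling, so the sign of miR-342-3p and miR-132 flips under both. In WD+CCl4 against WD+oil they were -1.32, -0.54 and -0.72 in the same order, or -0.97, -0.32 and -0.63 without those libraries, and all 3 flip to 0.016, 0.80 and 0.61 with spike-in scaling. miR-342-3p showed no overlap here, as 1.27% of the 158 miRNAs did with WD+CCl4 lower. In WD+CCl4 against ND+oil the differences were 0.36, 0.69 and 0.34, or 0.71, 0.91 and 0.43 without those libraries, and 1.80, 2.14 and 1.78 with spike-in scaling. In these comparisons the median over the 158 miRNAs moved with that scaling from -0.16 to 1.22, from 0.00 to 1.30 and from -0.17 to 1.25. Either scaling applies 1 factor per sample, so a difference taken relative to that median hardly depends on the choice. Relative to the median, all 3 miRNAs were lower in WD+CCl4 than in WD+oil. A difference relative to the median cannot tell less of the 3 miRNAs from more of the other miRNAs, and its cause was not tested.

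How far the 3 miRNAs varied together depended on the libraries and the depth sets. Across the 22 libraries other than those that stand apart, deviations from the group mean correlated at r = 0.56 between miR-342-3p and miR-132, 0.24 between miR-146a and miR-132 and 0.11 between miR-342-3p and miR-146a. The points share the depth sets: with deviations taken within group and set, r was 0.46, 0.44 and 0.56 in the same order. In ND+oil and WD+oil miR-342-3p was higher in replicates 1 to 3 (mean log2 9.97 and 11.56) than in replicates 4 to 6 (9.03 and 10.78), while miR-146a was lower in replicates 1 to 3 (10.9 and 12.17 against 11.21 and 12.4). With all 24 libraries r was 0.74, 0.57 and 0.56, values that include the low levels of all 3 in the libraries that stand apart. These correlations are descriptions without a test.

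**Figure D4:**
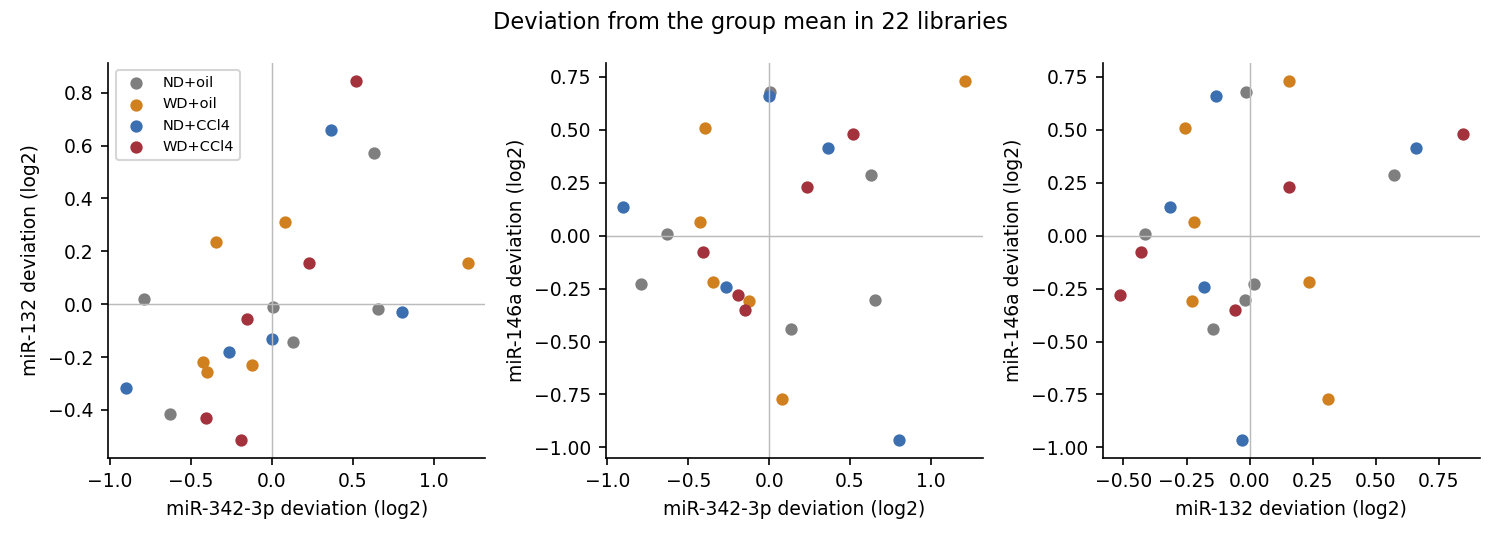
Deviation of each sample from its group mean (log2) for each pair of the 3 miRNAs, in the 22 libraries other than those that stand apart, coloured by group. Over these points r is 0.56 for miR-342-3p and miR-132 and 0.11 for miR-342-3p and miR-146a; with deviations taken within depth set as well it is 0.46 and 0.56.

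miR-122 was among the 3 miRNAs closest in these deviations to miR-342-3p and to miR-132, but not to miR-146a. Among 157 others, miR-532-5p (r = 0.74), miR-1933-5p (0.73) and miR-122 (0.73) came closest to miR-342-3p, at 0.44, 0.34 and 0.44 within group and set. miR-122 (0.75), miR-139-5p (0.72) and miR-126-3p (0.68) came closest to miR-132, at 0.75, 0.72 and 0.64 within group and set. For miR-146a they were miR-2141 (0.55), miR-361 (0.51) and miR-30d (0.51). Between miR-146a and miR-122 r was 0.004, but 0.35 within group and set, and -0.50 with all 24 libraries. The relation to miR-122 rests on leaving out the libraries that stand apart: with all 24, r with miR-122 was -0.22 for miR-342-3p and -0.09 for miR-132. For the red cell miRNA miR-451 r was -0.58 with miR-342-3p, -0.02 with miR-146a and -0.13 with miR-132 in 22 libraries, and 0.18, 0.41 and 0.29 with all 24, so these values also depend on the libraries that stand apart.

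Other miRNAs known from the same cell types and pathways were compared to see whether they shared the diet difference. In WD+oil against ND+oil, where the median log2 difference of all 158 miRNAs was -0.14, neither tested lymphoid miRNA passed and both were lower, miR-150 of mature lymphocytes at -0.79 and miR-181a of developing lymphocytes at -1.15 (limma adjusted p = 0.321 and 0.196). Of 5 myeloid miRNAs 0 passed, 2 higher and 3 lower, with miR-142-3p, a miRNA of blood cells generally, at -1.20 and miR-27a at 0.52. Of the 4 other tested miRNAs known to respond to NF-kB or Toll-like receptors 0 passed, and their median was 0.00. Those with the smallest p were miR-222 at -0.21 and miR-21 at 0.17. miR-155, the best known member of that list and also of the lymphoid list, had at most 1 count in every sample. Of 3 neuronal miRNAs miR-128 fell (log2 difference -1.29, SE 0.38, limma adjusted p = 0.0257), and it no longer passed when samples were centred on their median.

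Without the libraries that stand apart, miR-181a fell in WD+oil (log2 difference -1.15, limma adjusted p = 0.00314), as did miR-142-3p (-1.20, adjusted p = 0.00701) and miR-223 of neutrophils and monocytes (-0.90, adjusted p = 0.00479). In that fit 29 of 158 miRNAs were called lower (18.4%), and the log2 differences are those of the full fit, since the omitted libraries enter the spread alone. Blocked on the replicate number, miR-142-3p fell as well (limma adjusted p = 0.0243), as 12.7% of the 158 did. The summed level of the 5 lymphoid probes other than miR-342-3p ranged from 3125 to 8552 in ND+oil, 2114 to 3772 in WD+oil, 549.9 to 8769 in ND+CCl4 and 662 to 5098 in WD+CCl4. The 6 myeloid probes summed to 27688 to 36846 in ND+oil, 17291 to 29357 in WD+oil, 25278 to 51632 in ND+CCl4 and 19718 to 57440 in WD+CCl4. Each sum gives most weight to its most abundant tested miRNA, miR-150 and miR-223, at mean log2 values of 12.24 and 14.51 in ND+oil. Neither sum thus stood higher in WD+oil than in ND+oil. The part of blood cell number in the levels of miR-342-3p and miR-146a was not tested.

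Hepatocyte-enriched miRNAs were the list with members called higher in WD+oil against ND+oil. miR-122 rose 37.4-fold (log2 difference 5.23, SE 0.85, limma adjusted p = 0.00036) and miR-192 8.96-fold (3.16, SE 0.80, adjusted p = 0.0135) in WD+oil, all 5 tested members were higher, and their median was 2.002, or 3.72 with the negative control mean subtracted. Both folds are set against low control values: in ND+oil miR-122 had 35 to 91 counts, at 0.99 to 1.93 times the negative control limit, and miR-192 was above the limit in 3 of 6 samples. The 6 hepatocyte-enriched probes together summed to 1243 to 2248 in ND+oil and 7800.2 to 22574 in WD+oil. The part of hepatocyte RNA in the levels of the 3 miRNAs was not tested. Of 7 red cell miRNAs 0 passed, 3 higher and 4 lower, with a median of -0.08 beside -0.14 for all miRNAs. Those with the smallest p were miR-144 at -1.15 and miR-15b at -1.07. Of 5 platelet and endothelial miRNAs 0 passed, with all 5 lower and miR-191 (-0.83) and miR-199a-3p (-0.64) having the smallest p.

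In WD+CCl4 against ND+CCl4, where the median of all miRNAs was -0.02, no member of these 7 lists passed. The lymphoid miR-181a was at -1.36 (limma adjusted p = 0.333) and miR-150 at -0.54, while the median was -0.04 for myeloid miRNAs, -0.02 for the NF-kB and Toll-like receptor list, -0.29 for neuronal, -0.10 for red cell, 0.31 for platelet and endothelial and 0.15 for hepatocyte-enriched miRNAs. Without the libraries that stand apart these medians were -0.07, -0.06, -0.34, -0.23, 0.12 and 0.27 in the same order. Without those libraries 8 of 158 miRNAs passed, 4 of them lower (2.53%), and miR-181a was among those that fell (log2 difference -1.67, SE 0.30, adjusted p = 0.000978).

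**Figure D5:**
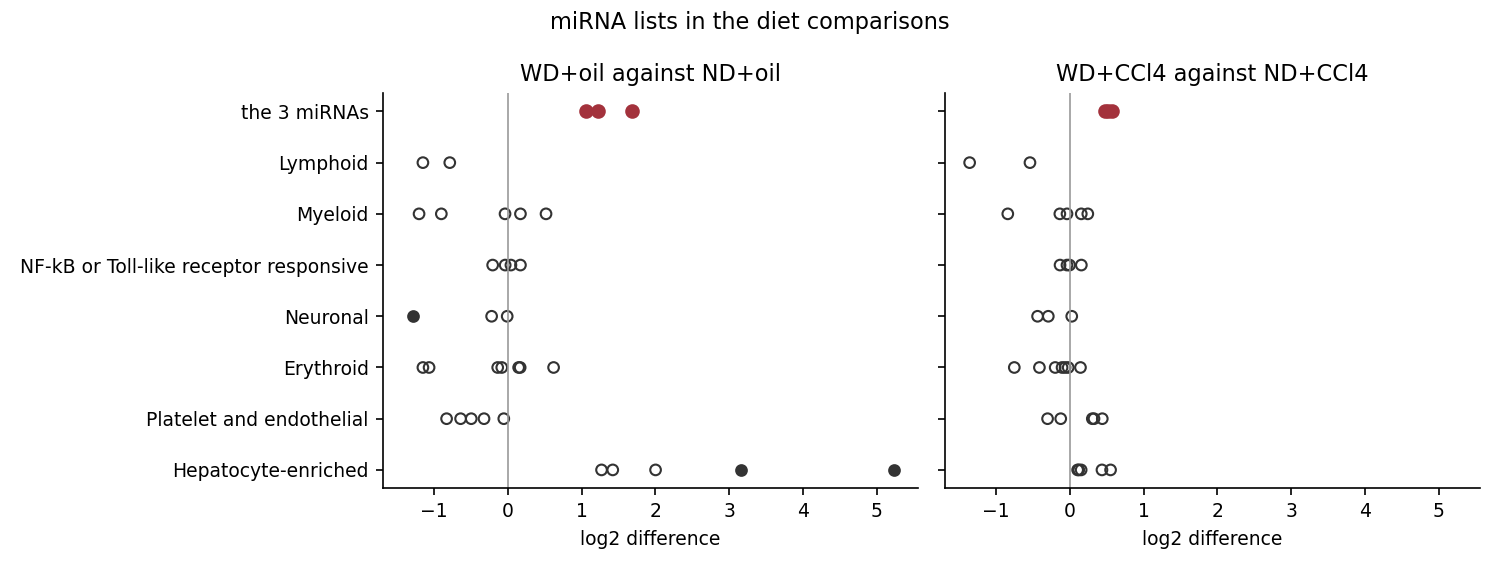
Log2 difference of each tested miRNA in 7 lists and of the 3 miRNAs (red), in the diet comparison under oil, which chose the 3, and under carbon tetrachloride; filled black points passed a limma adjusted p under 0.05. Lymphoid miRNAs lie left of 0 in both panels, and hepatocyte-enriched miRNAs lie between 1.27 and 5.23 in the left panel and between 0.11 and 0.55 in the right one.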

How the data were processed

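Serum exosome RNA was extracted with a miRNeasy micro kit, per the labels' protocols, and profiled on a NanoString nCounter panel (Mouse v1, miRNA). The authors deposited 1 table of 626 features by 24 samples in the unit signal: digital counts multiplied by 1 factor per sample (0.397 to 5.72, from the values), with control probes unscaled and values under 1 raised to 1. The exosome isolation and the software were not given in the sources used here. Division by each sample's factor returned whole numbers in 14571 of 14571 values (100%, tolerance 0.05 counts), and 117 values in 9 libraries were at the floor of 1.

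The test was limma 3.58.1 (R 4.3.3), with a mean-variance trend in eBayes, on log2(value + 1) with 4 group means over 24 samples, two-sided, Benjamini-Hochberg adjusted over 158 miRNAs. edgeR 4.0.16 and DESeq2 1.42.0 used the recovered counts. Members, lists and tests were chosen with earlier results of these data known. Named miRNAs are the 3, their relatives, the 3 closest to each in deviations, the 2 on either side of the threshold, and per list the called ones or the 2 with the smallest p. Same-numbered samples had residual correlations over 0.1 in 6 of 6 pairs between WD+oil and ND+oil (0.32 to 0.75). The same held between WD+CCl4 and ND+CCl4 (0.28 to 0.84). In each case the best match had the same number in 4 of 6. The numbers were therefore used as pairs in descriptions and in the replicate block, while the main test was unpaired. No label states a pairing, and the correlations were not taken within depth set, so shared depth may contribute to them. Positions and sequences come from RefSeq (GRCm38.p6); 6 of 6 sequences were matched by name, and the table states no build. Steps were tested on simulated data.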

Additional observations from a re-analysis of the deposited data

Results flagged for a closer look

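In 20 sets of 6 samples, made of levels and library measures by group, the gap between an extreme sample and its neighbour was compared with the range of the set. It exceeded Dixon's 95% critical value in 3 of them, where chance gives about 1 in 20. miR-342-3p in WD+oil replicate 3 had a log2 value of 12.39, above the other 5 samples of its group by 0.69 of the range. miR-342-3p in WD+CCl4 replicate 1 was at 8.08, below the rest of its group by 0.65 of the range. The total count of that same library, 1328912, lay above the other WD+CCl4 libraries by 0.74 of the range.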

How the results depend on the processing

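In WD+CCl4 against ND+CCl4 the 3 miRNAs kept their direction and missed the threshold in all 41 alternatives (adjusted p 0.0897 to 0.997 for miR-342-3p, 0.373 to 0.997 for miR-146a, 0.219 to 0.997 for miR-132), the replicate block among them (adjusted p = 0.574, 0.449 and 0.386). Their WD+oil against ND+oil differences ranged from 1.43 to 1.83, 1.08 to 1.38 and 0.98 to 1.20 over 40 alternatives. Spike-in scaling moved the comparisons of carbon tetrachloride with oil, to 1.18, 1.62 and 1.22 (ND+CCl4 against ND+oil), 0.016, 0.80 and 0.61 (WD+CCl4 against WD+oil) and 1.80, 2.14 and 1.78 (WD+CCl4 against ND+oil); the cause was not tested.

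The number of miRNAs called in WD+CCl4 against ND+CCl4, 1 as reported, was 0 with spike-in scaling, replicates 1 to 3 alone, the compared groups alone or exact permutation; 3 with the replicate block, a set term, the haemolysis covariate or edgeR; 8 without the libraries that stand apart; 13 with DESeq2; and 20 in replicates 4 to 6. Leaving out 1 library gave 1 to 10: in ND+CCl4, omitting replicate 1 gave 10 and omitting replicate 2 or 3 gave 2, and in WD+CCl4 omitting replicate 1 gave 3 and omitting replicate 2 gave 5. In WD+oil against ND+oil, 17 as reported, the number was 1 with spike-in scaling, 2 in replicates 1 to 3, 5 with no filter, 10 with edgeR, 30 with DESeq2, 33 with a set term, 37 with the replicate block, 40 in replicates 4 to 6, 52 without the libraries that stand apart and 58 with the compared groups alone. Leaving out 1 library gave 6 to 34: omitting replicate 1 of ND+CCl4 or of WD+CCl4 gave 34 and 31, omitting WD+oil replicate 3 gave 6, and in ND+oil omitting replicate 3 or 4 gave 10 and omitting replicate 6 gave 8.

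Of the lists in WD+oil, hepatocyte-enriched miRNAs had 5 called without the libraries that stand apart, 4 with background subtracted or the block, and 1 with spike-in scaling. Without those libraries 1 lymphoid miRNA was called in each diet comparison, and 2 myeloid, 2 erythroid and 1 platelet in WD+oil; the block gave 1 myeloid and 2 erythroid. The neuronal call was lost (0) with median centring or spike-in scaling. Spike-in scaling and the block for lists were added after the data were seen. Depth limits miR-132 most, and its relatives could not be followed.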
